A study of Mus musculus with 126 samples.

Results

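Sphingosine 1-phosphate (S1P) is a signalling lipid that cells make, export, destroy and sense through a small set of proteins, and 8 of their genes are described here in single cells of the mouse endolymphatic sac. The genes were taken by symbol from the 48490 gene identifiers of the expression table: the kinases Sphk1 and Sphk2, the lyase Sgpl1, the phosphatase Sgpp1, the exporter Spns2 and the receptors S1pr1, S1pr2 and S1pr3. All 8 were in the table. The set was chosen by FPKM differences between the genotypes and between the Aldh1a1 and Aldh1a3 classes of these same cells, that of Sphk1 among them, so the values below are descriptions and none of them was tested. The cells came from inner ears at embryonic stage E14.5. The labels place 93 cells with Sox9Y440X/+ sacs, heterozygous for a mutant allele of the transcription factor gene Sox9, and 33 cells with wild-type sacs, and no further treatment, strain or transgene is named for either group. Neither the number of animals nor whether cells were pooled is given, so each genotype counts as 1 sample and the spread over cells is not a spread over animals. Cells were compared by genotype, and among the cells with Epcam, an epithelial adhesion gene, at 1 FPKM or more, also by which of Aldh1a1 and Aldh1a3, both genes of retinoic acid synthesis, was the higher (dominant) at 1 FPKM or more. FPKM is the number of fragments scaled to transcript length and to the mapped fragments of the cell, a level per length.

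S1P is formed when sphingosine, a breakdown product of ceramide, is phosphorylated by the sphingosine kinases SPHK1, mainly of the cytosol and plasma membrane, and SPHK2, mainly of the nucleus and inner membranes. It is removed for good by the lyase encoded by Sgpl1 and returned to sphingosine by the phosphatase encoded by Sgpp1, and SPNS2 carries it out of the cell, where it binds G-protein-coupled S1P receptors. In mice, loss of Spns2 or S1pr2 is known to cause deafness with failure of the stria vascularis, the cochlear epithelium that secretes endolymph. The endolymphatic sac is the other end of the endolymph compartment and takes part in its ion and fluid balance.

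The Epcam threshold kept 113 of 126 cells, 81 mutant and 32 wild type. In every one of these 113 cells at least 3 of 8 epithelial markers were detected, where detected means 1 FPKM or more. Epcam is itself 1 of the 8, so 1 of the 3 was fixed by the threshold. The lowest Epcam value inside the threshold was 53.1 FPKM, and the 13 cells outside it were listed at 0. Of these 13, 9 of 12 mutant cells and the 1 wild-type cell had at least 3 of 10 mesenchymal markers. With Epcam at 0 as well, the epithelial label did not hold for them. Inside the threshold, 2 of 81 mutant and 2 of 32 wild-type cells also had at least 3 mesenchymal markers, and these were kept. Wild-type cell 1, Aldh1a3-dominant and with Sphk1 detected, had 9 of the 10. Wild-type cell 27, Aldh1a1-dominant and with Sphk1 listed at 0, had 3. Aldh1a1-dominant cells numbered 41 in the mutant and 14 in wild type, and Aldh1a3-dominant cells numbered 35 in the mutant and 16 in wild type. In 5 mutant cells and 2 wild-type cells neither gene was detected. The highest of the pair was at least 10.04 FPKM in every dominant cell, and in 5 of them it was under 4 times the other. Read depth is unknown for FPKM. Genes listed above 0 stand in for it, with a median of 4453 in mutant Epcam cells and 5244 in wild-type Epcam cells.

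Detection of a Y-linked gene almost divided the cells by genotype label. Wild-type cell 19 was the only wild-type cell without a Y-linked gene detected, and its Sphk1 was 209.55 FPKM. Only 4 of the 93 mutant-labelled cells had a Y-linked gene detected. These 4 (mutant cells 47, 58, 70 and 82) have titles that begin with P9 and end in 12, as does the title of wild-type cell 33, the single wild-type cell whose title begins with P9. The other 32 wild-type titles begin with P10 and all mutant titles with P9. Neither title prefix nor sex, read from Y-linked genes, can therefore be told apart from genotype in the differences below, that of Sphk1 included. Sphk1 in the 4 mutant-labelled cells was 0, 93.4, 55.3 and 35.7 FPKM, and in wild-type cell 33 it was 28.8 FPKM. The Sphk1 shares in Epcam and Aldh1a3-dominant cells and the S1pr3 difference in Aldh1a3-dominant cells are also given without cells of this kind. Other shares include them. Without the 4 mutant-labelled cells, Sgpl1 was detected in 35 of 77 mutant Epcam cells and S1pr3 in 22 of 77.

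In the coordinates of the table (mouse build mm10, counted from 1), Sphk1 (ENSMUSG00000061878.15) lies on the plus strand of chromosome 11 at 116530925 to 116536674, in 4 merged exon blocks, of which 192 bases overlap the antisense gene Gm29292, detected in 2 mutant and 2 wild-type Epcam cells. Spns2 (ENSMUSG00000040447.15) lies on the minus strand of the same chromosome at 72451638 to 72489904. Sphk2 (ENSMUSG00000057342.15) lies on the minus strand of chromosome 7 at 45709467 to 45718002. Sgpl1 (ENSMUSG00000020097.14) is on chromosome 10 at 61098642 to 61147703 and Sgpp1 (ENSMUSG00000021054.5) on chromosome 12 at 75714248 to 75735729, both on the minus strand. The receptor genes S1pr1 (ENSMUSG00000045092.8), at 115710433 to 115715072 of chromosome 3, and S1pr2 (ENSMUSG00000043895.5), at 20965952 to 20976793 of chromosome 9, are on the minus strand. S1pr3 (ENSMUSG00000067586.3) is on the plus strand of chromosome 13 at 51408618 to 51422797.

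Promoter sequence is shown for the kinases, because Sphk1 was the member with the largest genotype difference, Sphk2 is its paralogue, and the mutated gene encodes a SOX factor. The windows are RefSeq's (GRCm38.p6), 250 bases before to 50 bases after an annotated start, written 5′ to 3′ on the gene's strand. The letters searched were ACAATG, a core that SOX proteins bind, on both strands. In the first window of Sphk1, chr11:116530850-116531149 on the plus strand, the capitals mark the match on the other strand, which begins 121 bases before the start; the windows chr11:116531587-116531886 of Sphk1 and chr7:45717953-45718252 (minus strand) of Sphk2 are shown for comparison and hold no match.
Sphk1, first start: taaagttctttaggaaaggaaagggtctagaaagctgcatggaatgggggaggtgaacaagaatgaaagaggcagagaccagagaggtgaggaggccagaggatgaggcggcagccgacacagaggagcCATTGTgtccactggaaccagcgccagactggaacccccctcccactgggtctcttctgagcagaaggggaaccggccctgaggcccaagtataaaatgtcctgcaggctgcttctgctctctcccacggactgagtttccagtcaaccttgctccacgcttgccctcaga
Sphk1, second start: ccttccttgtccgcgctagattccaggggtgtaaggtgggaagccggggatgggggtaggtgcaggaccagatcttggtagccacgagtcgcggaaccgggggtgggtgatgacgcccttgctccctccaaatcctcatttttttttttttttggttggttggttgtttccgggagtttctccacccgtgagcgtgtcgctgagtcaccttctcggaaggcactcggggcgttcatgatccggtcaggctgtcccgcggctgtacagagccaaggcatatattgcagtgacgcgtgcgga
Sphk2, outermost start: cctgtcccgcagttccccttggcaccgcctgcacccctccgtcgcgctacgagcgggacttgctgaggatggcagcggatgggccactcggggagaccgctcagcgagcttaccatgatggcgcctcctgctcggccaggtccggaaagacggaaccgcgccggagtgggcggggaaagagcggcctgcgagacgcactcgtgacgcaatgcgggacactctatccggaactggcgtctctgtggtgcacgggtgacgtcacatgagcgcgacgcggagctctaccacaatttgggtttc
Among the members, 7 of 8 matched a window (S1pr1 is named only), with 12 windows in all, and 1 of these 12 held the letters. Over all 32851 windows 12.6% held them, so the member count is near the background. A match describes the letters only.

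By mean FPKM in Epcam cells, Sphk1 was the most abundant of the 8 genes in both genotypes, and it was the member that differed most between them. In mutant Epcam cells it ranged from 0 to 294.8 FPKM with a median of 0, and in wild-type Epcam cells from 0 to 264.4 FPKM with a median of 55.6. It was detected in 35 of 81 mutant cells (43.2%, 32.2% to 54.7%) and in 29 of 32 wild-type cells (90.6%, 74.98% to 98.0%; 95% intervals here and below are exact Clopper-Pearson intervals of counting error alone). The ranges overlap almost wholly, and over all Epcam cells the genotypes differed mainly in the number of cells in which the gene was not detected. Where it was detected, its median was 68.5 FPKM in mutant cells and 62.1 FPKM in wild-type cells. By class that median differed in opposite directions. It was 68.5 FPKM in mutant and 123.6 FPKM in wild-type Aldh1a3-dominant cells, and 63.2 FPKM in mutant and 44.1 FPKM in wild-type Aldh1a1-dominant cells. The mean of log2(FPKM + 1) was 2.47 ± 3.05 in mutant Epcam cells and 5.42 ± 2.25 in wild-type Epcam cells (SD over 81 and 32 cells), a difference of -2.95. Over the 7184 genes compared, those detected in at least 25% of cells of either group, the median difference was -0.29. Relative to it Sphk1 was at -2.66, which made it the 16th lowest gene; a gene was called lower or higher when its relative difference was at least 1 in size. One member of the 4 that passed the filter was called lower, beside 5.61% of all compared genes, and 0 were called higher, beside 4.13% of all compared genes. Since the members were chosen with this contrast in view, nothing is read from that count.

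**Figure D1:**
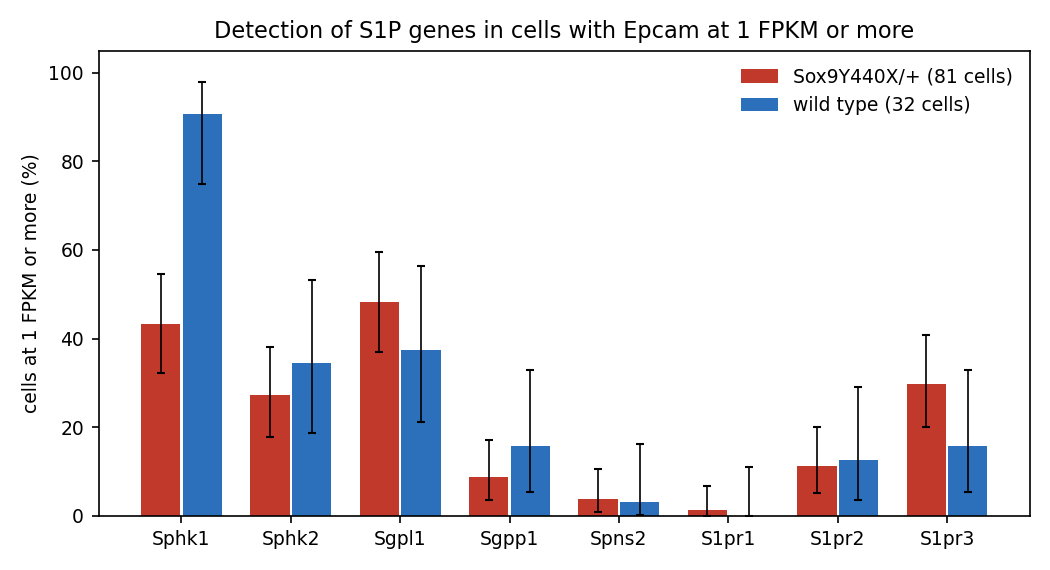
Share of cells with Epcam at 1 FPKM or more in which each S1P gene was detected (y axis, percent of cells at 1 FPKM or more), for Sox9Y440X/+ cells on the left of each pair and wild-type cells on the right, with exact 95% intervals that cover counting error only. Sphk1 stands at 43.2% in mutant cells and 90.6% in wild-type cells, and the intervals of each other gene overlap.

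**Figure D2:**
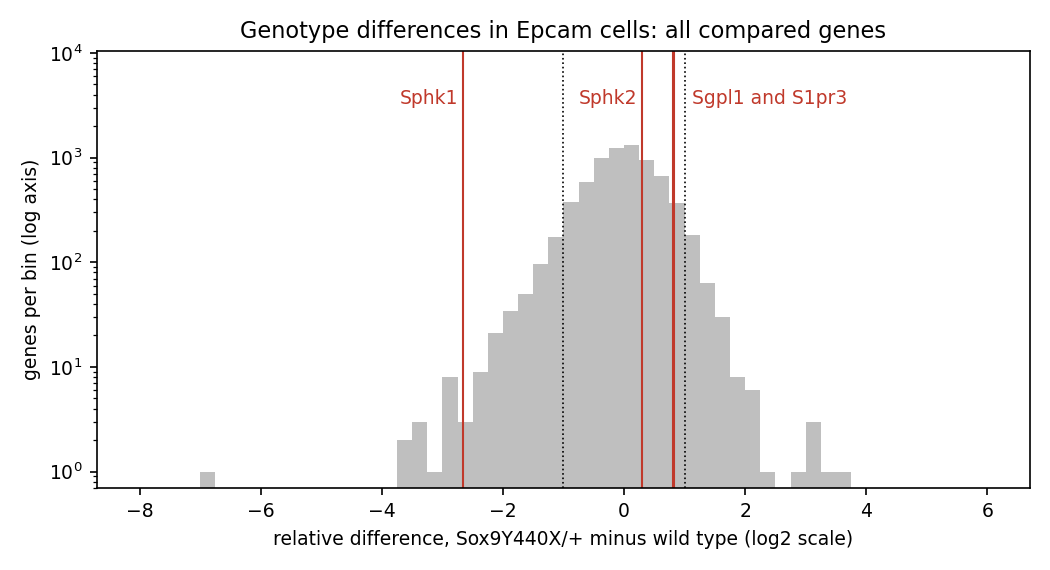
Relative difference of mean log2(FPKM + 1), Sox9Y440X/+ minus wild type, in Epcam cells for all 7184 genes compared (x axis; grey bars, genes per bin on a log axis), with the 4 S1P genes that passed the filter as red lines and the call limits of 1 in either direction dotted. Sphk1 lies at -2.66, Sphk2 at 0.30, and Sgpl1 and S1pr3 both at 0.82.

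The Sphk1 difference was measured also in subsets of the cells. Without the 4 mutant-labelled cells that carry a Y-linked gene, 32 of 77 mutant Epcam cells (41.6%) had Sphk1, against 29 of 32 wild-type cells. Among cells with 3000 to 5000 listed genes, a range that narrows the gap in listed genes, it was detected in 22 of 53 mutant cells and 12 of 12 wild-type cells. Within the P9 prefix the only wild-type cell had 28.8 FPKM, a single value that gives no within-prefix comparison. Mutant cells with Sphk1 had a median of 4704 listed genes and mutant cells without it 4211.5. In wild type the 29 cells with Sphk1 had a median of 5082 and the 3 cells without it 5899, so the sign of that gap differed between genotypes. The part of capture depth in the Sphk1 difference was not tested.

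Foxi1, a transcription factor gene of ion-transporting cells, marked the wild-type cells without Sphk1. Foxi1-high cells, with Foxi1 at 10 FPKM or more, numbered 11 in the mutant and 5 in wild type. All 3 wild-type Epcam cells without Sphk1 were Foxi1-high and Aldh1a1-dominant. In Foxi1-high cells Sphk1 was detected in 2 of 11 mutant cells and 2 of 5 wild-type cells. In the other Epcam cells it was detected in 33 of 70 mutant cells (47.1%, 35.1% to 59.5%) and in 27 of 27 wild-type cells (100%, 87.2% to 100%). Its mean there was 40.2 FPKM in mutant cells and 96.9 FPKM in wild-type cells.

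The Sphk1 gap between genotypes was widest in Aldh1a3-dominant cells. There mutant values ran from 0 to 275.7 FPKM with a median of 0, and wild-type values from 6.62 to 264.4 FPKM with a median of 123.6. The gene was detected in 11 of 35 mutant cells (31.4%, 16.85% to 49.3%) and in 16 of 16 wild-type cells (100%, 79.4% to 100%). It was listed at 0 in 24 of the 35 mutant cells and in 0 of the 16 wild-type cells, while the top mutant cell exceeded every wild-type cell. Mean log2(FPKM + 1) was 1.64 ± 2.70 in mutant cells and 6.25 ± 1.57 in wild-type cells (SD over 35 and 16 cells), and the relative difference of -4.24 was the 6th lowest of 7599 genes. Leaving out mutant-labelled cells that carry a Y-linked gene, the mutant count was 9 of 33 (27.3%). With 3000 to 5000 listed genes, 8 of 26 mutant cells and 8 of 8 wild-type cells had Sphk1.

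In Aldh1a1-dominant cells the gap was smaller, a contrast between classes that was not tested. Mutant values ran from 0 to 294.8 FPKM with a median of 3.24, and wild-type values from 0 to 209.5 FPKM with a median of 31.4. Sphk1 was detected in 21 of 41 mutant cells (51.2%, 35.1% to 67.1%) and 11 of 14 wild-type cells (78.6%, 49.2% to 95.3%), so the intervals overlap. The relative difference was -0.97, just short of a call, with 0 of the 5 members compared called lower, beside 8.56% of 7443 genes, and 0 called higher, beside 9.86%. The outcome depended on the setting: Sphk1 was called lower in 7 of 14 alternatives, over a range of -3.39 to -0.09. Without Foxi1-high cells it was at -1.68 and was detected in 19 of 32 mutant cells and 9 of 9 wild-type cells.

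**Figure D3:**
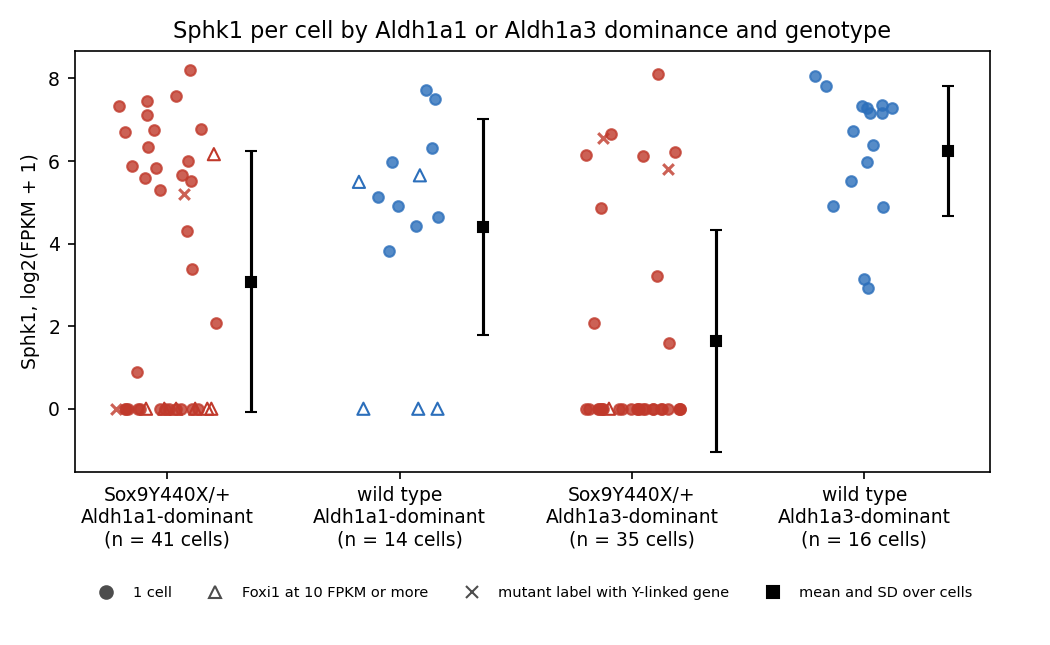
Sphk1 as log2(FPKM + 1) (y axis) in each Epcam cell by Aldh1a1 or Aldh1a3 dominance, Sox9Y440X/+ left of wild type in each pair; triangles are cells with Foxi1 at 10 FPKM or more, crosses mutant-labelled cells with a Y-linked gene, and squares with bars the mean and SD over cells. All 16 wild-type Aldh1a3-dominant cells lie above 0, the 3 wild-type cells at 0 are triangles, and 24 of 35 mutant Aldh1a3-dominant cells lie at 0.

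Set side by side within a genotype, the Aldh classes ranked differently for Sphk1. In the mutant its mean log2(FPKM + 1) was 3.08 ± 3.16 in Aldh1a1-dominant cells and 1.64 ± 2.70 in Aldh1a3-dominant cells, a difference of 1.44 and a relative difference of 1.25. In wild type the mean was 4.40 ± 2.62 in Aldh1a1-dominant cells and 6.25 ± 1.57 in Aldh1a3-dominant cells, a difference of -1.85 and a relative difference of -1.96. Each of these differences is smaller than the SD over cells of at least one class in it. In the mutant, 1 of the 4 members compared was called higher, beside 10.6% of 6737 genes, and 0 were called lower, beside 8.02%. In wild type, 1 of the 5 members compared was called lower, beside 14.2% of 8297 genes, and 0 were called higher, beside 15% of them. The wild-type call was lost without Foxi1-high cells (-0.67), among cells with 3000 to 5000 listed genes (-0.02) and on the ratio of mean FPKM (-0.996), and the mutant call was lost with a pseudocount of 10 (0.70). The value of -0.02 rests on only 3 wild-type Aldh1a1-dominant cells, beside 8 wild-type Aldh1a3-dominant cells.

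**Figure D4:**
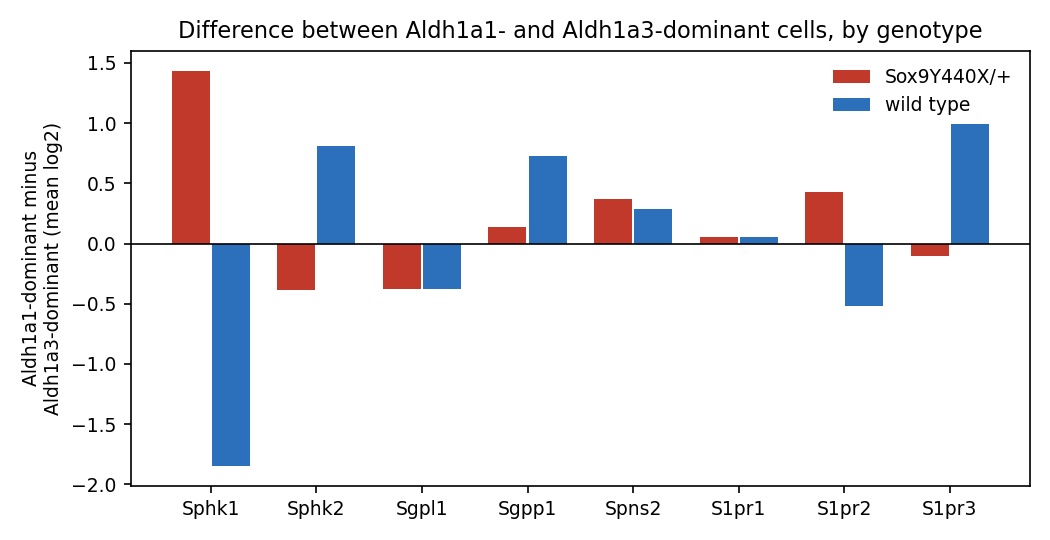
Difference of mean log2(FPKM + 1), Aldh1a1-dominant minus Aldh1a3-dominant cells (y axis), for the 8 S1P genes in Sox9Y440X/+ cells (left bar of each pair) and wild-type cells (right bar). Sphk1 has 1.44 in mutant cells and -1.85 in wild-type cells, the widest gap between genotypes of the 8 genes.

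The other kinase gene, Sphk2, showed no such gap between genotypes over all Epcam cells. In mutant Epcam cells it ranged from 0 to 81.8 FPKM and in wild-type Epcam cells from 0 to 25.02 FPKM, with a median of 0 in both. It was detected in 22 of 81 mutant cells (27.2%, 17.9% to 38.2%) and 11 of 32 wild-type cells (34.4%, 18.6% to 53.2%), and its relative difference was 0.30. By class the relative difference of Sphk2 was 0.94 in Aldh1a3-dominant cells, just short of a call, and -0.25 in Aldh1a1-dominant cells. Its exons share 373 bases with the antisense gene Rpl18, a ribosomal protein gene at a median of 850.9 FPKM in mutant cells and 968.4 FPKM in wild-type cells, and 539 bases with Dbp. The strand setting of the counting is not given in the sources used here, so Sphk2 values are uncertain. Across cells Sphk2 and Rpl18 had a Spearman correlation of 0.10 in 81 mutant cells and -0.01 in 32 wild-type cells. For Sphk2 and Dbp it was 0.30 in mutant cells and 0.35 in wild-type cells. Dbp was detected in only 6 mutant and 4 wild-type Epcam cells, and Sphk2 in 3 of those 6 and 3 of those 4. The part of either overlap in the Sphk2 values was not tested. Sphk1 and Sphk2 were detected together in 12 mutant cells, where 9.51 would follow if they were independent, and in 9 wild-type cells, where 9.97 would.

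Of the genes that remove S1P, the lyase gene Sgpl1 was the second member by mean FPKM in Epcam cells of both genotypes. In mutant Aldh1a3-dominant cells it came first, with a mean of 27.9 FPKM beside 22.2 FPKM for Sphk1. Sgpl1 ranged from 0 to 147.6 FPKM in mutant Epcam cells and from 0 to 58.1 FPKM in wild-type Epcam cells. It was detected in 39 of 81 mutant cells (48.1%, 36.9% to 59.5%) and 12 of 32 wild-type cells (37.5%, 21.1% to 56.3%). The relative difference was 0.82, short of a call. The phosphatase gene Sgpp1 was rarer, detected in 7 of 81 mutant cells (8.64%) and 5 of 32 wild-type cells (15.6%), with maxima of 23.8 FPKM in mutant cells and 29.1 FPKM in wild-type cells. It was detected in 4 of 11 mutant Foxi1-high cells and 3 of 70 other mutant Epcam cells. In wild type it was detected in 2 of 5 Foxi1-high cells and 3 of 27 other Epcam cells. Foxi1-high cells had more listed genes, with a median of 5068 against 4376 in other mutant cells and 5983 against 5019 in other wild-type cells, and the part of that in the Sgpp1 counts was not tested.

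The exporter gene Spns2 was detected in 5 cells. Among mutant Epcam cells 3 of 81 had it, at 21.1, 24.6 and 59.1 FPKM, and among wild-type Epcam cells 1 of 32, at 15.1 FPKM. All 4 were Aldh1a1-dominant. In Aldh1a3-dominant cells it was listed at 0 in 35 of 35 mutant cells (upper limit 8.57%) and in 16 of 16 wild-type cells (upper limit 18.8%), the limit being 3 cells of the total. The fifth cell, at 35.1 FPKM, was a mutant cell with Epcam at 0 and all 8 endothelial markers, among them Pecam1 at 309.7 FPKM and Cdh5 at 31.7 FPKM. Spns2 shares 131 exon bases with the antisense gene Mybbp1a, which was detected in 0 of the 3 mutant Epcam cells with Spns2 and in the 1 wild-type cell. Sphk1 was detected in 2 of the 3 mutant Epcam cells with Spns2 and not in the wild-type cell.

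The receptor genes were detected in a minority of epithelial cells. S1pr1, a receptor gene best known from endothelium and lymphocytes, was detected in 1 of 81 mutant Epcam cells, at 2.52 FPKM, and in 0 of 32 wild-type Epcam cells (upper limit 9.38%). The highest value of the series, 12.2 FPKM, was in the mutant cell with 8 endothelial markers that also had Spns2. S1pr2 was detected in 9 of 81 mutant Epcam cells (11.1%, 5.21% to 20.1%) and 4 of 32 wild-type Epcam cells (12.5%, 3.51% to 28.99%), with maxima of 115.2 FPKM and 24.3 FPKM. Of the 9 mutant cells 6 were Aldh1a1-dominant and 3 Aldh1a3-dominant. Of the 4 wild-type cells 1 was Aldh1a1-dominant and 3 Aldh1a3-dominant.

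S1pr3 was the receptor gene detected most often. It ranged from 0 to 129.7 FPKM in mutant Epcam cells and from 0 to 30.8 FPKM in wild-type Epcam cells, with a median of 0 in both. It was detected in 24 of 81 mutant cells (29.6%, 19.99% to 40.8%) and 5 of 32 wild-type cells (15.6%, 5.28% to 32.8%). The relative difference was 0.82, short of a call. Among Aldh1a1-dominant cells it was detected in 12 of 41 mutant cells and 4 of 14 wild-type cells. Among Aldh1a3-dominant cells it was detected in 11 of 35 mutant cells (31.4%, 16.85% to 49.3%) and 1 of 16 wild-type cells (6.25%, 0.158% to 30.2%), a relative difference of 1.41. In that comparison 1 of the 4 members compared was called higher, beside 9.37% of 7599 genes, and 1, Sphk1, was called lower, beside 11.1%. The only wild-type Aldh1a3-dominant cell with S1pr3, at 29.2 FPKM, was wild-type cell 33, and without it and without mutant cells 47, 58, 70 and 82 the relative difference was 1.79. The S1pr3 call was lost with a pseudocount of 10 (0.51) and among cells with 3000 to 5000 listed genes (0.93), and with a filter of 50% of cells the gene was not compared.

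Cells outside the Epcam threshold held S1P receptors as well. S1pr2 was detected in 4 of 12 mutant cells, at 139.8, 65.7, 59.4 and 1.58 FPKM, and in the 1 wild-type cell, at 30.9 FPKM. S1pr3 was detected in 4 of 12 mutant cells, at 107.0, 64.2, 45.8 and 38.3 FPKM, and in the wild-type cell, at 25.5 FPKM. Each of these cells had at least 3 mesenchymal markers. The highest S1pr2 value of the series is among them. Sphk1 was detected in 1 of the 12 mutant cells, at 77.2 FPKM, and in the wild-type cell, at 49.4 FPKM. Taking all cells in place of the Epcam cells, Sphk1 was detected in 36 of 93 mutant cells (38.7%) and 30 of 33 wild-type cells (90.9%).

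**Figure D5:**
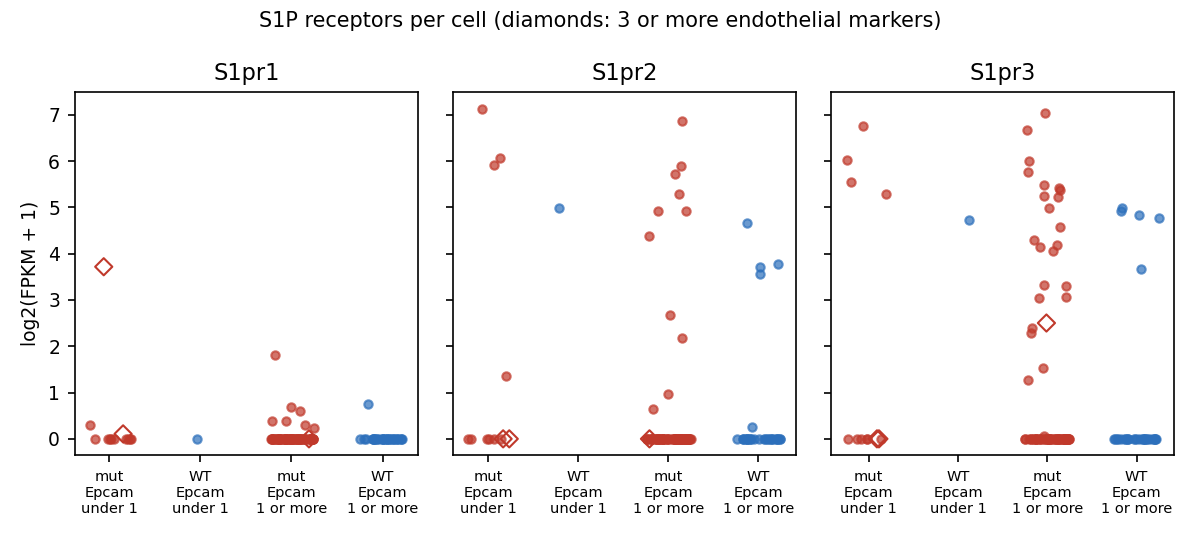
S1pr1, S1pr2 and S1pr3 as log2(FPKM + 1) (y axis) in each cell with Epcam under 1 FPKM (12 mutant cells and 1 wild-type cell) and with Epcam at 1 FPKM or more (81 and 32), mut standing for Sox9Y440X/+ and WT for wild type; diamonds are cells with 3 or more endothelial markers. The highest S1pr1 value is a diamond outside the Epcam threshold, and S1pr3 is detected in 24 of 81 mutant and 5 of 32 wild-type Epcam cells.

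By mean FPKM, a level per length, the order in mutant Epcam cells was Sphk1 (36.1 FPKM), Sgpl1 (20.2 FPKM), S1pr3 (8.86 FPKM), Sphk2 (6.28 FPKM), S1pr2 (4.36 FPKM), Spns2 (1.29 FPKM), Sgpp1 (0.80 FPKM) and S1pr1 (0.06 FPKM). In wild-type Epcam cells Sphk1 (84.7 FPKM) and Sgpl1 (11.3 FPKM) again led. Sphk2 (3.99 FPKM), S1pr3 (3.92 FPKM), Sgpp1 (2.46 FPKM), S1pr2 (1.87 FPKM), Spns2 (0.47 FPKM) and S1pr1 (0.02 FPKM) followed. On the log2 scale, Sphk1 and Sgpl1 in wild type are the only neighbours in these orders whose means lie further apart than the SD over cells of either gene, 5.42 ± 2.25 for Sphk1 and 1.80 ± 2.35 for Sgpl1. At least 1 member was detected in 71 of 81 mutant Epcam cells and 32 of 32 wild-type Epcam cells, with a median of 1 member a cell in the mutant and 2 in wild type, and at most 5 in either. A kinase and a receptor were detected in the same cell in 18 of 81 mutant cells, where 16.7 would follow if they were independent, and in 8 of 32 wild-type cells, where 8.72 would. Sgpl1 and S1pr3 were detected together in 16 mutant cells, where 11.6 would follow, and in 2 wild-type cells, where 1.88 would.

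For each member, 4700 genes were ranked by the mean of the 2 within-genotype Spearman correlations with it, over 81 mutant and 32 wild-type Epcam cells. For Sphk1 the first were the keratin gene Krt19 (0.27 in mutant cells and 0.60 in wild-type cells) and the heparin-binding growth factor gene Mdk (0.22 in mutant cells and 0.61 in wild-type cells), followed by Rbm42, Cst3 and Prep. For Sphk2 they were Itfg1, Abce1, Cltb, Abr and Srp54a, and for Sgpl1 Hnrnpa0, Chfr, Zbtb21, Add3 and Aurkaip1. Some of these ranked mainly through the wild-type cells. Srp54a, Chfr and Aurkaip1 had 0.10, 0.15 and 0.16 in mutant cells, beside 0.56, 0.62 and 0.58 in wild-type cells. The highest mean for any of the 3 members was 0.43. The named genes are the top of 4700, and how high the top would lie for unrelated genes was not tested. Cells also differ in listed genes, and whether cells of a genotype shared a library preparation is not given. Sphk1 had a correlation with Sox9 of -0.09 in mutant cells and -0.15 in wild-type cells, and with Sox10, the related SOX gene in the study's title, of 0.03 in mutant cells and 0.14 in wild-type cells. With Oc90, an otoconial protein gene of the sac epithelium, it was 0.27 in mutant cells and 0.25 in wild-type cells.

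Around the 8 members, 71 genes of sphingolipid metabolism and S1P or lysophosphatidic acid signalling were listed in 7 groups, and all were in the table. By genotype in Epcam cells 40 were compared, of which 3 were called lower, beside 5.61% of all genes, and 2 higher, beside 4.13%. These counts are near the background, so nothing is read from them. The median relative difference of a group, 0 by construction over all compared genes, ran from -0.58 for the YAP-response genes to 0.19 for the ceramide-synthesis genes. Among the lower ones were Smpd1 (relative difference -1.20), the lysosomal sphingomyelinase gene, and Ctgf (-1.20), a gene that responds to the coactivator YAP. The higher ones were Sptlc1 (1.39), a subunit gene of the serine palmitoyltransferase that begins ceramide synthesis, and Gnai3 (1.23), a G-protein subunit gene. None of the 2 compared sphingosine-supply genes, which encode ceramidases, was called, and Asah1, acid ceramidase, was detected in 80.2% of mutant cells and 84.4% of wild-type cells. S1pr4, S1pr5, Mfsd2b (an S1P exporter of blood cells), Apom (an S1P carrier of plasma), Acer1, Sptssb, Cers1 and Cerk did not reach 1 FPKM in any of the 126 cells.

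Between Aldh classes in the mutant, Aldh1a1-dominant against Aldh1a3-dominant, 39 of these genes were compared, with 4 called higher, beside 10.6% of all genes, and 1 lower, beside 8.02%, so the count of higher genes is near the background. Among the higher ones were Smpd1 (3.10), the palmitoyltransferase subunit gene Sptlc2 (2.22) and the sphingomyelin synthase gene Sgms1 (1.21), and the lower one was Smpd4 (-1.04). Smpd1 was detected in 92.7% of mutant Aldh1a1-dominant cells and 42.9% of mutant Aldh1a3-dominant cells. In wild type 45 were compared, with 12 called higher, beside 15% of all genes, and 4 lower, beside 14.2%. The largest among the higher were Ctgf (3.27), Sptlc2 (2.63), Smpd1 (2.52), the lipid phosphatase gene Plpp2 (1.93) and the ceramide synthase gene Cers2 (1.76), followed by Cyr61 (1.63), the desaturase gene Degs1 (1.44), Ormdl2 (1.42), Rhoa (1.38), Gnai3 (1.31), Samd8 (1.13) and Asah1 (1.06). The lower ones were Ormdl1 (-1.92), which encodes a brake on palmitoyltransferase, the ceramide synthase gene Cers4 (-1.90), Lats2 (-1.57) and Smpd2 (-1.28). Group medians ran from -0.33 (YAP response) to 0.77 (other S1P genes) in the mutant and from -0.19 (lysophosphatidic acid genes) to 0.79 (YAP response) in wild type. Smpd1 was detected in 100% of wild-type Aldh1a1-dominant cells and 62.5% of wild-type Aldh1a3-dominant cells.

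By genotype within an Aldh class, 43 of the listed genes were compared in Aldh1a1-dominant cells, with 4 called higher, beside 9.86% of all genes, and 4 lower, beside 8.56%. In Aldh1a3-dominant cells 40 were compared, with 5 called higher, beside 9.37% of all genes, and 5 lower, beside 11.1%. These counts are near the background, so the genes below are named as values and nothing is read from their number. In Aldh1a1-dominant cells Ctgf was the lowest (-2.68), detected in 31.7% of mutant cells and 78.6% of wild-type cells, followed by Amotl2 (-1.45), another YAP-responsive gene, Cers2 (-1.24) and Ormdl2 (-1.20). The higher ones there were Sgms1 (1.36), Kdsr (1.31), which encodes an early enzyme of ceramide synthesis, Sptlc1 (1.14) and Cers3 (1.09). In Aldh1a3-dominant cells Cyr61, a YAP-responsive gene, was the highest (2.19). Among the lower ones were Ormdl1 (-2.06), Smpd1 (-1.40), Lats2 (-1.33) and Cers5 (-1.04), and the other higher ones Sptlc1 (1.98), Gnai3 (1.77), Smpd4 (1.60) and Sptssa (1.20). Sptlc1 was thus called higher in both classes.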

How the data were processed

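The values are FPKM (fragments scaled to transcript length and to the cell's mapped fragments) deposited by the authors as 1 table of 126 cells. The labels give Smart-seq2, a full-length protocol that uses no molecular identifiers. Cufflinks, HTSeq, HISAT2, SAMtools 0.1.18 and build mm10 appear in the submitters' processing notes, with no role or order; for annotation and strand the setting was not given in the sources used. The 49 identifiers with several rows were summed (48555 rows, 48490 identifiers). Cells took their group from the genotype label. With 1 sample per genotype there is no test; cells are not replicates. Differences are of mean log2(FPKM + 1) with a pseudocount of 1, minus the median over genes detected (1 FPKM) in at least 25% of cells of either group. A limit for a gene seen in 0 cells is 3 cells of the total. No cell was filtered or called a doublet, since that needs counts; an alternative dropped cells with more than 6000 listed genes. The script that computes the differences was run on simulated data with known changes. Of the gene lists, the text names called genes, at most 4 per direction and list, largest first. The 5 genes most like a member were named for members detected in at least 20% of Epcam cells of both genotypes. Members and lists were chosen with earlier results of these data known. Of the listed genes, 1 is counted but not reported here by name. Alternatives changed the pseudocount, filter, scale, Epcam and dominance thresholds, Foxi1-high cells, listed genes and the cells at odds with labels. Python 3.11.15, numpy 2.4.6, pandas 2.3.3, scipy 1.17.1 and matplotlib 3.10.9 were used.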

Additional observations from a re-analysis of the deposited data

Results flagged for a closer look

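The difference of Sphk1 between Aldh1a1-dominant and Aldh1a3-dominant cells had opposite signs in the genotypes. It was 1.44 in mutant cells and -1.85 in wild-type cells on the log2(FPKM + 1) scale, so the differences lay 3.28 apart. With 1 sample per genotype, this contrast between genotypes was not tested. Opposite signs were not particular to Sphk1. The difference was -0.39 in mutant and 0.81 in wild-type cells for Sphk2, and -0.11 and 0.996 for S1pr3. For S1pr2, which did not pass the filter, it was 0.43 in mutant and -0.52 in wild-type cells. Listed genes had medians of 4730 in mutant Aldh1a1-dominant, 4268 in mutant Aldh1a3-dominant, 5664 in wild-type Aldh1a1-dominant and 4958.5 in wild-type Aldh1a3-dominant cells. Foxi1-high cells were 5 of the 14 wild-type Aldh1a1-dominant cells and 0 of the 16 wild-type Aldh1a3-dominant cells, and without them the wild-type relative difference was -0.67.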

How the results depend on the processing

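The relative difference of Sphk1 kept its sign under every alternative run in all 5 comparisons. By genotype in Epcam cells it ran from -3.99 to -1.09 and in Aldh1a3-dominant cells from -6.21 to -2.16, past the call each time; in Aldh1a1-dominant cells it ran from -3.39 to -0.09 and was called lower in 7 of 14 alternatives. Between classes in wild type the call held in 11 of 14. Between Aldh classes it ran from 0.70 to 1.77 in the mutant and from -2.79 to -0.02 in wild type. No called value changed sign; 31 counts of members called moved by over 1.5 times or to or from 0, and 36 values of Spns2, S1pr1, Sgpp1 or S1pr3 moved past the SD over cells (0 for Spns2 in Aldh1a3-dominant cells) or out of their 95% interval; the cause was not tested. The share of all compared genes called was taken in the main setting only. The counts of members called under alternatives therefore have no background beside them, and nothing is read from them. With a pseudocount of 0.1, members called higher were 2 by genotype in Epcam cells, 3 between Aldh classes in wild type, 1 by genotype in Aldh1a1-dominant cells (with 1 lower) and 3 in Aldh1a3-dominant cells. With a pseudocount of 10 they were 0 between Aldh classes in the mutant and 0 by genotype in Aldh1a3-dominant cells. With each cell rescaled to 1000000, and likewise without cells of over 6000 listed genes, they were 1 by genotype in Epcam cells, 1 in Aldh1a1-dominant cells (with 1 lower) and 2 in Aldh1a3-dominant cells. With 3000 to 5000 listed genes they were 1 by genotype in Epcam cells, 1 between classes in wild type and 1 by genotype in Aldh1a1-dominant cells, with 2 lower there and 1 lower between classes in the mutant. Only 3 wild-type Aldh1a1-dominant cells lay in that range of listed genes. On the ratio of mean FPKM they were 1 by genotype in Epcam cells, 1 between classes in wild type (with 0 lower) and 3 in Aldh1a3-dominant cells. Members called lower by genotype in Aldh1a1-dominant cells were 1 on that ratio, with a filter of 10% of cells, without Foxi1-high cells and with dominance of at least 4 times. Without Foxi1-high cells, 0 were lower between classes in wild type. Without wild-type cell 33, and also without mutant cells 47, 58, 70 and 82 (leaving out both was chosen after seeing the data), 1 was higher between classes in wild type. No paired analysis was possible because no result comes from a test and cells carry no replicate number in their titles. Depth is unknown for FPKM, so a gene under 1 FPKM in a cell was not detected there, not absent.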

Other observations

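Sgpp2, a phosphatase gene related to Sgpp1, was detected in 1 of the 126 cells, a mutant Aldh1a1-dominant cell. The 7 Epcam cells with neither Aldh1a1 nor Aldh1a3 detected had a median of 1 S1P gene detected in both genotypes, over 5 mutant cells and 2 wild-type cells.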
